A study of Mus musculus with 2 samples.

Results

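The genes described here encode intermediate filament proteins, the rope-like cytoskeletal polymers of animal cells. The set holds *Nefl*, *Nefm*, *Nefh*, *Ina*, *Prph*, *Gfap*, *Vim* and *Nes*, which is 8 of the 28692 genes counted in the files. Their rows were taken by gene symbol, and each symbol had 1 row. The family was chosen by its measured UMI levels per cell class and library in an earlier analysis of these same cells. Levels across cell classes and between libraries are therefore given as a description, with no test. On GRCm38 (GENCODE M21) the genes lie at chr14:68083863-68089095 (*Nefl*), chr14:68082590-68124846 (*Nefm*), chr11:4938754-4948064 (*Nefh*), chr19:47014698-47025327 (*Ina*), chr15:99055174-99058978 (*Prph*), chr11:102887336-102900912 (*Gfap*), chr2:13573927-13582826 (*Vim*) and chr3:87971078-87980451 (*Nes*).

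Cells came from the ventral parafacial region of the brainstem of 10-day-old C57BL6/J mice and were profiled by droplet-based single-cell RNA sequencing (10x Chromium, v2 chemistry). The untreated library (labelled WT, batch 1) and the 4OH-tamoxifen library (batch 2) each pool tissue of 8 animals, of which 4 were male and 4 female. Injections in the second group were of 0.2 mg per day on 3 days, and no transgene or Cre is named for either group. With 1 library per condition there is no replicate, and treatment, batch and library cannot be told apart. The values are counts of unique molecular identifiers (UMIs), 1 per captured RNA molecule, read near the 3′ end, so a gene is compared with itself across classes and genes are not ranked against each other.

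After filtering, 3339 untreated and 8558 4OH-tamoxifen cells remained, with a median of 3628 and 2411 UMIs. A cell was placed in a class when it had at least 2 UMIs of a marker gene and 0 of the other 8 markers, which assigned 1311 (39.3%) and 3164 (37.0%) cells. The classes are named by the marker: *Chat* (cholinergic neurons), *Slc32a1* (inhibitory neurons), *Slc17a6* (glutamatergic neurons), *Aqp4* (astrocytes), *Pdgfra* (oligodendrocyte precursors), *Mog* (oligodendrocytes), *C1qa* (microglia), *Cldn5* (endothelial cells) and *Kcnj8* (pericytes). This strict gate left 4 and 11 cells in the *Chat* class, 24 and 129 in the *Slc32a1* class, 10 and 51 in the *Slc17a6* class and 25 and 20 in the *Kcnj8* class, with 123 to 1309 cells in the others. A wider gate, chosen after the data were seen, gave 22 and 107 *Chat* cells, 87 and 322 *Slc32a1* cells and 46 and 139 *Slc17a6* cells. In each class of the strict gate the further markers listed for that type were at least 2 times as high as in the other classes pooled, except *Tph2* in the *Slc17a6* class of both libraries and *Lmx1b* in that class of the 4OH-tamoxifen library, where they were at 0 CPM. With the wider gate the only exception was *Tph2* in the 4OH-tamoxifen *Slc17a6* class, at 1.52 CPM against 2.68 CPM. Of the barcodes that passed the filters, 37 untreated and 35 4OH-tamoxifen cells carry a barcode found in both libraries.

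Neurofilaments fill large axons, and their light, medium and heavy subunits are encoded by *Nefl*, *Nefm* and *Nefh*. Alpha-internexin (*Ina*) and peripherin (*Prph*) assemble with them, the first in central neurons and the second in peripheral neurons and in central neurons whose axons leave the brain, such as motor neurons. Glial fibrillary acidic protein (*Gfap*) is the filament of astrocytes, vimentin (*Vim*) that of endothelial, mesenchymal and many immature cells, and nestin (*Nes*) is best known from neural progenitors and from growing vessels.

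For orientation, the 250 bases upstream of the start are shown for *Prph*, highest in the *Chat* class, *Gfap*, highest in the *Aqp4* class, and *Vim* and *Nes*, which were both highest in the *Cldn5* class. The sequences are from RefSeq (GRCm38.p6), read 5′ to 3′ along the gene's strand, and capitals mark the letters TATAAA. They lie at chr15:99054924-99055173 (plus strand, *Prph*), chr11:102897201-102897450 (minus strand, *Gfap*), chr2:13574061-13574310 (plus strand, *Vim*) and chr3:87970843-87971092 (plus strand, *Nes*). The start is the one used by the RefSeq promoter table, which is not always the outermost start of a gene, so the *Gfap* and *Vim* windows and the end of the *Nes* window lie inside the GENCODE spans given above and the *Prph* window inside the RefSeq span (chr15:99053579-99058978).
Prph: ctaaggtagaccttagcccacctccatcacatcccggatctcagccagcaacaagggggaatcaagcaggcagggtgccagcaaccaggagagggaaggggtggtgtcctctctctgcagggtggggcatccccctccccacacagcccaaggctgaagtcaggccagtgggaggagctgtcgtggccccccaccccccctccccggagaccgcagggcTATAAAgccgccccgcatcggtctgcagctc
Gfap: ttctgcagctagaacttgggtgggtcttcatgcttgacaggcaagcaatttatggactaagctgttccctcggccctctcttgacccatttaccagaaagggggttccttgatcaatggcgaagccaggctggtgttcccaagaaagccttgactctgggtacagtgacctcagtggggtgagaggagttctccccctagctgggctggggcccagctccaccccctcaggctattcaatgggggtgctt
Vim: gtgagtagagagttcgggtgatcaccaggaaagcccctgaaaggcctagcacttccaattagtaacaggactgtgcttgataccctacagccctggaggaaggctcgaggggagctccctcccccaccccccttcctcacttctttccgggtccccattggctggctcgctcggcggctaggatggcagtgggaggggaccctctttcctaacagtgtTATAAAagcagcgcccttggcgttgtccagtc
Nes: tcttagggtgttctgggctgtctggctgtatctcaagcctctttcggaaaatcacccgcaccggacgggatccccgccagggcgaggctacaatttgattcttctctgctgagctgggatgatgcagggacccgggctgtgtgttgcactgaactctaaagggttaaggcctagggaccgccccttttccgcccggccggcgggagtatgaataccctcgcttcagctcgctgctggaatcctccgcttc

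Searched on both strands, TATAAA stood 31 to 26 bases before the start of *Prph* and 32 to 27 bases before that of *Vim*, and it was not among the letters of the *Gfap*, *Nes* or *Ina* windows. TATAAA occurred in 12.4% of 32851 promoter windows of the same length. The letters CCAAT (33.8% of windows) occurred 2 times in *Vim*, and GGGCGG (32.7% of windows) 2 times each in *Nes* and *Ina* and once in *Prph*, with no overlap with the TATAAA match. These matches describe letters only.

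The 3 neurofilament genes and *Prph* were highest in the *Chat* class in both libraries. *Nefl* reached 8329 UMIs per 1000000 UMIs (CPM; exact Poisson 95% interval 7478 to 9251) in the 4 untreated cells and 7724 (7145 to 8337) in the 11 4OH-tamoxifen cells. *Nefm* stood at 4391 and 3516 CPM, *Nefh* at 2482 and 2321 CPM and *Prph* at 2124 and 1782 CPM. All intervals here cover counting error only.

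**Figure D1:**
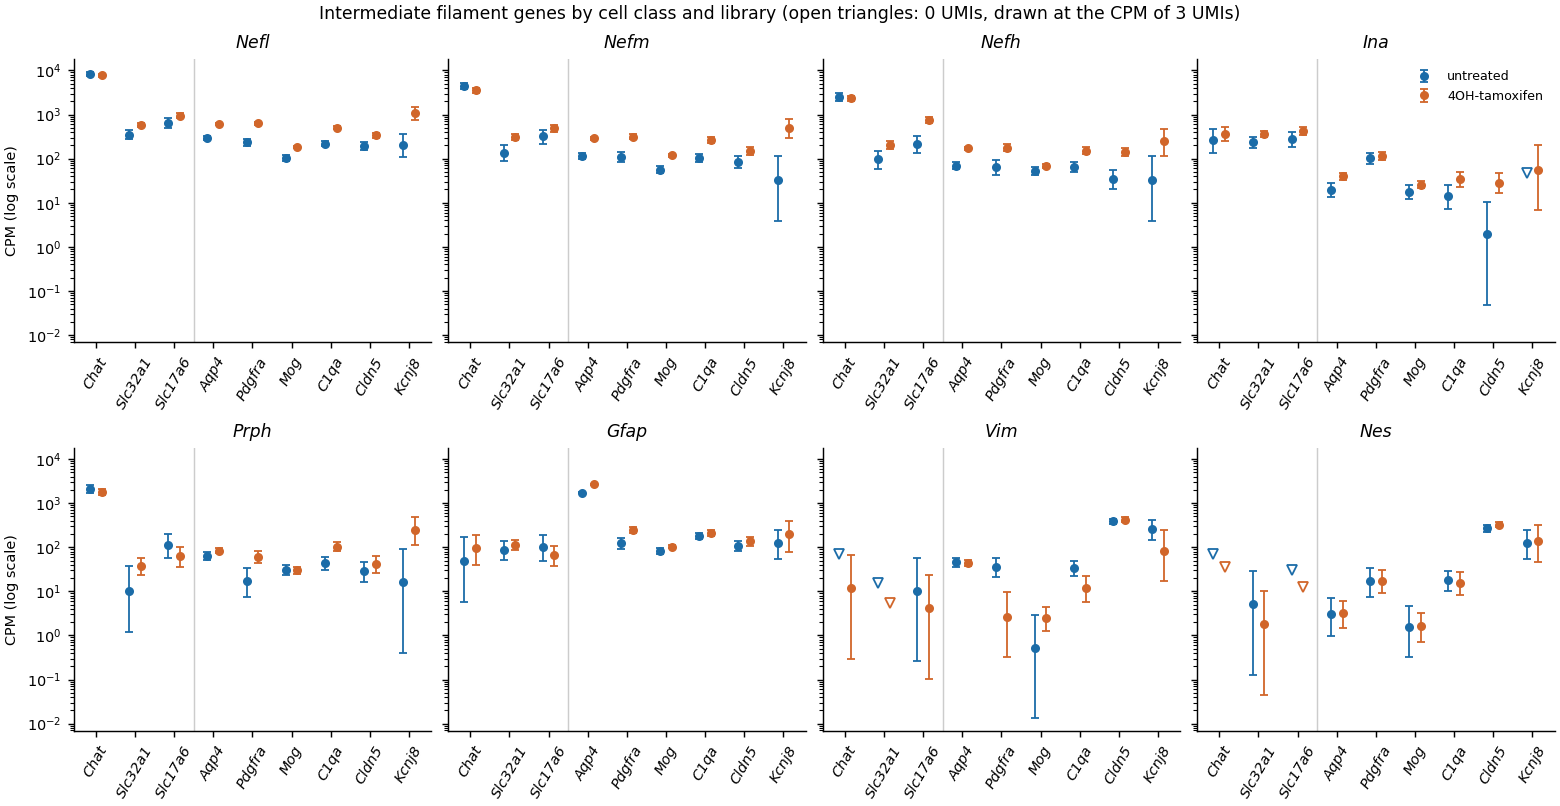
CPM of each gene (log axis) in the 9 marker-gated classes of the untreated (blue) and 4OH-tamoxifen (orange) libraries, with exact Poisson 95% intervals as bars. The grey line parts neurons from other classes, and open triangles stand for 0 UMIs and are drawn at the CPM of 3 UMIs. *Nefl*, *Nefm*, *Nefh* and *Prph* peak in the *Chat* class (*Nefl* at 8329 and 7724 CPM), *Gfap* in the *Aqp4* class (1729 and 2655 CPM), and *Vim* and *Nes* in the *Cldn5* class.

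Each *Chat* cell carried *Nefl*, *Nefm* and *Prph*. The 4 untreated cells held 259, 52, 24 and 14 *Nefl* UMIs, and the same cells held 38, 18, 19 and 14 *Prph* UMIs. Among the 11 4OH-tamoxifen cells *Nefl* ranged from 4 to 132 UMIs with a median of 38, and *Prph* from 3 to 25 with a median of 12. All 3 neurofilament genes were found together in 4 of 4 and 9 of 11 cells, against 4 of 24 (16.7%) and 34 of 129 (26.4%) *Slc32a1* cells and 3 of 10 and 26 of 51 *Slc17a6* cells. With the wider gate this held for 20 of 22 (90.9%) and 85 of 107 (79.4%) cells, and *Nefl* stood at 6859 and 8014 CPM, *Prph* at 2735 and 1731 CPM.

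The 5 neuronal filament genes (*Nefl*, *Nefm*, *Nefh*, *Ina* and *Prph*) summed to 17590 and 15706 CPM in the *Chat* class. In the *Slc32a1* class the sum was 826 and 1492 CPM. Single *Chat* cells ranged from 6152 to 23532 CPM (untreated) and from 4385 to 22695 CPM (4OH-tamoxifen). The *Slc32a1* cells reached at most 1952 CPM in the untreated library, without overlap, and at most 10062 CPM in the 4OH-tamoxifen library, where the ranges overlap. The highest *Slc17a6* cells stood at 2428 and 21505 CPM, so that range overlaps with 4OH-tamoxifen but not in the untreated library. The gap in the untreated library rests on the 4 *Chat* cells of the strict gate. With the wider gate the lowest of 22 untreated *Chat* cells stood at 5000 CPM, below the highest *Slc32a1* (6713 CPM) and *Slc17a6* (14024 CPM) cells, so the ranges overlap in both libraries.

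Of these 5 genes, *Prph* had the largest ratio between the *Chat* and *Slc32a1* classes in both libraries. Its CPM was 2124 in *Chat*, 114 in *Slc17a6* and 10.1 in *Slc32a1* cells of the untreated library, and 1782, 62.2 and 37.9 CPM with 4OH-tamoxifen. The ratio of *Chat* over *Slc32a1* was 209 (exact conditional interval 56.3 to 1756) and 47.0 (29.7 to 78.1). The untreated *Slc32a1* value rests on 2 UMIs in 24 cells. The *C1qa* class serves as the background here, on the assumption, not tested, that microglia do not use the gene. With the strict gate the 0.0833 and 0.163 *Prph* UMIs per *Slc32a1* cell were not separable from its 0.186 and 0.255. The per-cell ratios were 0.448 (0.0523 to 1.74) and 0.638 (0.376 to 1.04). With the wider gate the untreated value was 0.0920 against 0.159 in the *C1qa* class, with a ratio interval of 0.239 to 1.21. The 4OH-tamoxifen value was 0.283 against 0.226, with a ratio interval of 0.949 to 1.65, and it was 1.59 (1.24 to 2.03) times the *Aqp4* value. Of the 322 *Slc32a1* cells of that library and gate, 6 held 50 or more UMIs of the 5 genes. The richest held 185, against a median of 5, so a few cells can weigh on this value. The ratio of *Chat* over *Slc32a1* was then 238 (119 to 555) and 27.5 (22.2 to 34.5). The *Slc17a6* class held 1.10 and 0.294 *Prph* UMIs per cell.

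The neurofilament genes were lower in both other neuron classes. *Nefl* stood at 654 and 949 CPM in *Slc17a6* cells and at 350 and 572 CPM in *Slc32a1* cells, a ratio of 1.87 (1.31 to 2.67) and 1.66 (1.39 to 1.97). *Nefm* followed with ratios of 2.35 (1.36 to 4.10) and 1.57 (1.23 to 1.99). For *Nefh* they were 2.26 (1.16 to 4.45) and 3.62 (2.85 to 4.62), with intervals that overlap, and 1.54 (1.09 to 2.16) and 1.91 (1.66 to 2.20) with the wider gate.

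How far the neurofilament signal of *Slc32a1* cells stood above the background class depended on the gene, the scale and the gate. *Nefl* was found in 66.7% and 84.5% of *Slc32a1* cells and in 48.7% and 69.4% of *C1qa* cells, at median depths of 7968 and 4017 UMIs against 4057 and 2257 UMIs. Thinning to 2000 UMIs leaves out shallower cells, so it describes the deeper ones, which were 24 of 24 and 127 of 129 *Slc32a1* cells and 190 of 199 and 223 of 337 *C1qa* cells. Among them the shares were 41.7% and 59.8% against 27.4% and 59.6%. The *Nefl* CPM ratio over the *C1qa* class was 1.59 (1.19 to 2.11) and 1.13 (0.974 to 1.31) with the strict gate, and 1.57 (1.33 to 1.86) and 1.67 (1.52 to 1.84) with the wider gate. In the 4OH-tamoxifen library the 2 classes were thus not separable in *Nefl* CPM with the strict gate but were so with the wider gate. For *Nefm* the CPM ratio was 1.32 (0.822 to 2.05) and 1.18 (0.962 to 1.45), and in the wider gate 1.31 (0.994 to 1.72) and 1.55 (1.36 to 1.77). *Nefh* had CPM ratios of 1.47 (0.822 to 2.51) and 1.36 (1.05 to 1.77), and in the wider gate 1.57 (1.16 to 2.10) and 2.13 (1.81 to 2.51). Per cell all 3 genes were higher in *Slc32a1* cells with either gate, by 2.57 to 3.11 (untreated) and 1.98 to 2.38 times (4OH-tamoxifen) in the strict gate and by 2.40 to 2.88 and 2.66 to 3.65 times in the wider gate.

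*Ina* had a different order from the other neuronal filament genes. It stood at 280 CPM in *Slc17a6*, 263 in *Chat* and 233 in *Slc32a1* cells of the untreated library, and at 427, 363 and 363 CPM with 4OH-tamoxifen. Neighbours in this order did not differ beyond their counting intervals. Its ratio of *Slc32a1* over *Chat* was 0.89 (0.45 to 1.90) and 1.00 (0.68 to 1.51). With the wider gate it was highest in *Slc32a1* cells, at 322 and 389 CPM, and that ratio was 1.45 (0.967 to 2.28) and 1.18 (1.01 to 1.38).

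Among the 5 larger classes outside neurons, *Ina* stood highest in the oligodendrocyte precursors, in both libraries. It reached 104 (77.0 to 138) and 118 (94.3 to 145) CPM in the *Pdgfra* class. In the *Aqp4*, *Mog*, *C1qa* and *Cldn5* classes it stood at 1.91 to 19.8 CPM in the untreated and 25.8 to 39.9 CPM in the 4OH-tamoxifen library. The *Kcnj8* class held 0 *Ina* UMIs in 25 untreated cells, where 3 UMIs would give 48.0 CPM, and 2 in 20 4OH-tamoxifen cells, at 55.7 (6.74 to 201) CPM, an interval that overlaps that of *Pdgfra* cells. The ratio of *Pdgfra* over *Aqp4* was 5.25 (3.31 to 8.43) and 2.95 (2.20 to 3.93), and the first became 2.68 among cells with at most 10% mitochondrial UMIs. Per cell, the *Pdgfra* class held 0.348 and 0.236 *Ina* UMIs and the deeper *Mog* class 0.157 and 0.161, a ratio of 2.22 (1.40 to 3.54) and 1.47 (1.10 to 1.94). With the wider gate this ratio was 1.91 (1.36 to 2.68) and 1.22 (0.966 to 1.54), so per cell the classes were not separable in the 4OH-tamoxifen library, while in CPM they were, at 4.10 (3.24 to 5.17). *Ina* was found in 29.1% and 20.4% of *Pdgfra* cells, at median depths of 3104 and 1827 UMIs, and in 5.03% and 8.01% of *C1qa* cells, at 4057 and 2257 UMIs. After thinning, in the 129 of 141 and 140 of 373 *Pdgfra* cells deep enough for it, the shares were 17.1% and 23.6%, against 2.11% and 6.28% of *C1qa* cells. With 4OH-tamoxifen the thinned share of *Pdgfra* cells thus covers only the deeper ones. No *Pdgfra* cell had more than 4 *Ina* UMIs.

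Neurofilament UMIs were found in every class outside neurons. The 5 neuronal filament genes summed to 1.65 UMIs per cell in the *Aqp4*, 1.77 in the *Pdgfra*, 2.27 in the *Mog*, 1.88 in the *C1qa* and 1.46 in the *Cldn5* class of the untreated library. The 4OH-tamoxifen values were 2.61, 2.62, 2.66, 2.60 and 2.40 UMIs per cell.

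Over the 5 larger classes the sum was more level per cell than in CPM. Between them, the highest over the lowest value per cell was 1.56 (untreated) and 1.11 (4OH-tamoxifen). The untreated *Mog* value (2.08 to 2.48) lay above that of *Cldn5* cells (1.2 to 1.7), and with 4OH-tamoxifen their intervals overlap. The same ratio for CPM was 2.16 and 3.06, with the lowest CPM in the *Mog* class, whose cells were the deepest (median 7716 and 6221 UMIs). *Nefl* alone varied by 1.17 times per cell in both libraries and by 2.87 and 3.44 times in CPM. *Nefm* varied by 1.47 and 1.42 times per cell and by 2.02 and 2.62 times in CPM. In the untreated library the order was the reverse for *Nefh*, at 3.12 times per cell against 2.03 times in CPM, and for *Prph*, at 4.71 against 3.75 times. With 4OH-tamoxifen both were more level per cell, at 1.37 against 2.63 times and at 2.07 against 3.49 times. Of the 5 genes *Ina*, highest in the *Pdgfra* class, varied most, by 42.7 and 2.84 times per cell and by 54.6 and 4.55 times in CPM, where the lowest untreated class, *Cldn5*, held 1 UMI. The *Kcnj8* class, with few cells, held 0.720 and 3.80 UMIs per cell. With it as the sixth class the order turns in the untreated library, where the sum varied by 3.16 times per cell and 2.16 times in CPM, but not with 4OH-tamoxifen (1.58 and 4.95 times). Within the larger classes the link to depth differed. Deeper *Aqp4* cells had 1.65 and 1.49 times the depth of shallower ones. Their filament UMIs per cell were 1.68 and 1.51 times as many. In *Mog* cells the depth ratios were 2.70 and 2.04 and the filament ratios 0.743 and 1.24. In *Pdgfra*, *C1qa* and *Cldn5* cells the filament ratio lay below the depth ratio in both libraries. Why the classes differ was not tested.

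**Figure D2:**
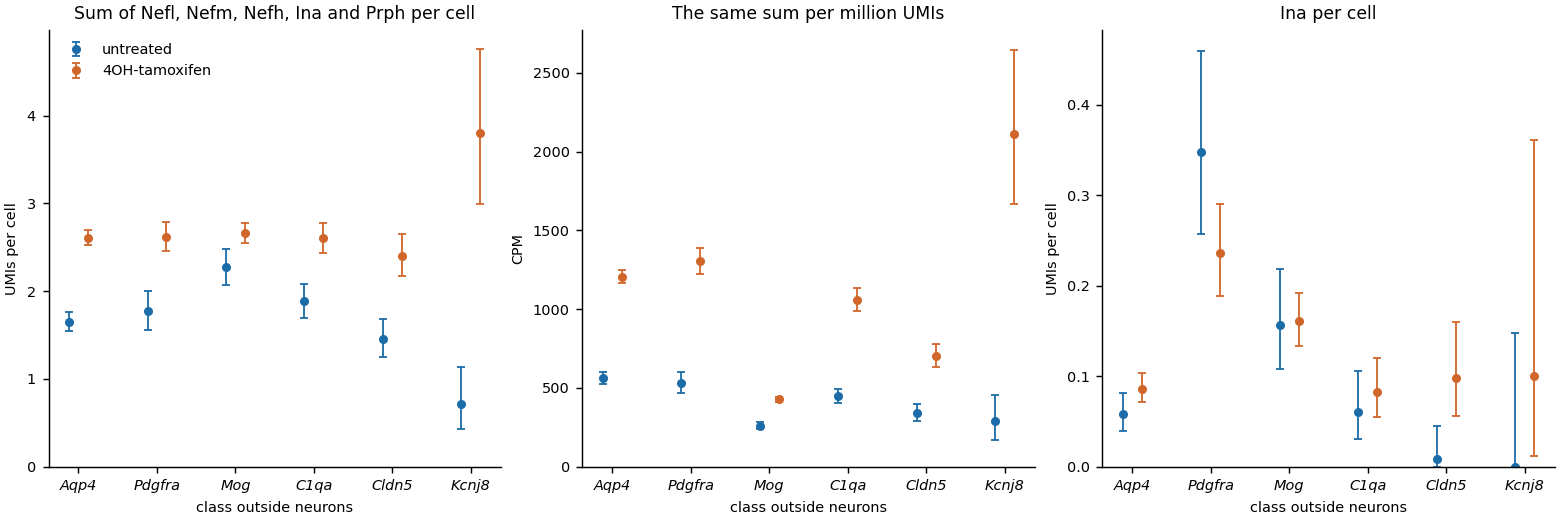
Neuronal filament UMIs in the 6 classes outside neurons, untreated (blue) and 4OH-tamoxifen (orange), with exact Poisson 95% intervals. The sum of the 5 genes per cell (left, UMIs per cell) lies at 1.46 to 2.27 and 2.40 to 2.66 in the 5 larger classes, the same sum in CPM (middle) is lowest in *Mog* cells, and *Ina* per cell (right) is highest in *Pdgfra* cells.

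Cells with no UMI of *Snap25*, *Syt1* or *Stmn2*, which mark neurons in general, still had these UMIs. They held 1.32, 1.74, 1.74, 1.47 and 1.19 UMIs per cell of the 5 genes in the *Aqp4*, *Pdgfra*, *Mog*, *C1qa* and *Cldn5* classes of the untreated library, and 2.18 to 2.47 with 4OH-tamoxifen. Few cells were rich in them. Cells with 10 or more such UMIs made up 0% to 1.06% of these untreated classes and 0.519% to 1.84% of the 4OH-tamoxifen classes, and 1 *Aqp4* cell of the 4OH-tamoxifen library held 290.

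In the *C1qa* class the mixture of the 5 genes was closer to that of the *Chat* class than to that of the *Slc32a1* class. *Nefl* made up 47.4% and 49.2% of their UMIs in *Chat* cells, and 49.1% and 47.8% in *C1qa* cells. *Prph* made up 12.1% and 11.3% in *Chat* cells, 9.87% and 9.81% in *C1qa* cells, and 1.23% and 2.54% in *Slc32a1* cells. *Ina* made up 1.49% and 2.31% in *Chat* cells and 3.20% and 3.19% in *C1qa* cells, against 28.2% and 24.3% in *Slc32a1* cells. In the untreated library 1 *C1qa* cell held 68 of the 375 UMIs of that class, where the median was 1, so those shares rest in part on it. The *Pdgfra* class stood apart, with 19.6% and 9.02% *Ina* and 3.20% and 4.71% *Prph*. *Prph* in the *Aqp4* class was 11.3% of the sum (untreated) and 6.91% (4OH-tamoxifen).

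**Figure D3:**
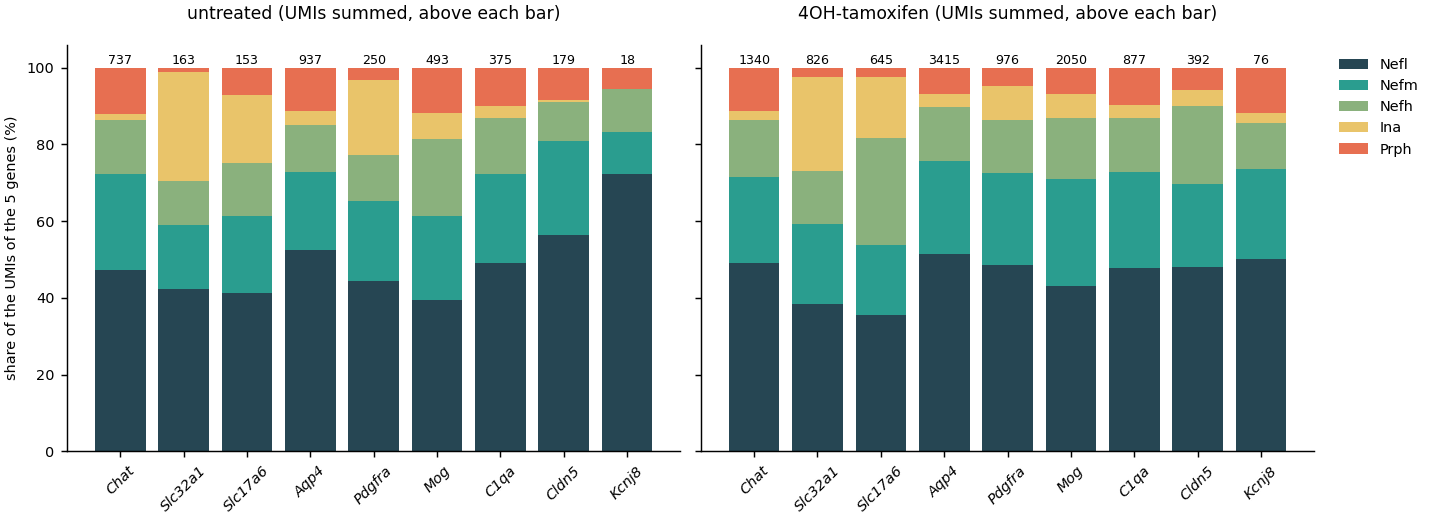
Share (%) of each of the 5 neuronal filament genes in their summed UMIs, by class, in the untreated (left) and 4OH-tamoxifen (right) library, with the summed UMIs above each bar. *Ina* (yellow) takes 28.2% and 24.3% in *Slc32a1* cells but 1.49% and 2.31% in *Chat* cells, and the bars of *Aqp4*, *C1qa* and *Cldn5* cells resemble the *Chat* bar more than the *Slc32a1* bar.

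Set against other neuronal RNA, the classes outside neurons carried more filament UMIs than inhibitory neurons did. Per UMI of 6 pan-neuronal genes (*Snap25*, *Syt1*, *Stmn2*, *Uchl1*, *Snhg11* and *Elavl4*) the 5 filament genes gave 1.52 and 2.05 UMIs in the *Chat* class, 0.109 and 0.197 in the *Slc32a1* class and 0.197 and 0.351 in the *Slc17a6* class. The 5 larger classes outside neurons gave 0.819 to 1.66 (untreated) and 1.22 to 2.18 (4OH-tamoxifen). Per UMI of the cholinergic genes *Slc5a7*, *Slc18a3*, *Calca* and *Isl1* they gave 7.47 to 13.2 and 12.7 to 23.1, above the 5.85 and 4.82 of the *Chat* class itself. The *Slc32a1* class gave 3.20 and 12.3 and the *Slc17a6* class 4.50 and 15.7. With 4OH-tamoxifen these neurons thus also lay above the *Chat* class, near or inside the range of the classes outside neurons. The sources of these UMIs were not tested.

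*Gfap* was highest in the *Aqp4* class, at 1729 (1666 to 1793) and 2655 (2595 to 2715) CPM or 5.07 and 5.74 UMIs per cell. In the *Pdgfra*, *Mog*, *C1qa* and *Cldn5* classes it held 0.411 to 0.764 and 0.466 to 0.643 UMIs per cell, and in the 3 neuron classes 0.500 to 1.00 and 0.314 to 0.727. The ratio of *Aqp4* over *C1qa* was 9.52 (8.09 to 11.3) and 12.4 (10.7 to 14.5) in CPM. The 4OH-tamoxifen ratio became 24.4 among cells with at least 1200 genes and 18.7 among those with at most 10% mitochondrial UMIs. *Gfap* was found in 39.2% and 36.2% of *C1qa* cells, which sets the background of its share, and in 53.5% and 62.0% of *Aqp4* cells, whose median depth was lower (2668 against 4057 UMIs, and 2008 against 2257). After thinning the shares were 22.1% and 25.1% of *C1qa* cells and 47.0% and 58.7% of the 502 and 673 *Aqp4* cells deep enough for it.

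Astrocytes differed widely in *Gfap* among themselves. No UMI was found in 46.5% and 38.0% of *Aqp4* cells, the median was 1 UMI in both libraries, and the highest cells had 110 and 80 UMIs. The tenth of cells with the most *Gfap* held 64.7% and 62.5% of its UMIs.

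*Vim* went with *Gfap* in astrocytes. *Aqp4* cells with *Vim* (58 and 100 cells) had 5587 and 8949 *Gfap* CPM, and those without had 1208 and 2062, a ratio of 4.62 (4.29 to 4.99) and 4.34 (4.13 to 4.56). Split by *Myoc*, a gene of fibrous astrocytes at the brain surface, in the wider gate, *Gfap* stood at 6626 CPM in the 151 untreated cells with *Myoc*, which was 10.2 times (9.52 to 10.9) the level in those without. In the 235 4OH-tamoxifen cells with *Myoc* the ratio was 6.99 (6.72 to 7.28). For *Vim* the ratios were 11.7 (7.65 to 18.5) and 4.25 (3.03 to 5.94). Cells with *Slc7a10*, an amino acid transporter gene of astrocytes, had 0.240 (0.226 to 0.255) and 0.257 (0.246 to 0.269) times the *Gfap* CPM of the others.

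*Vim* itself was highest in the *Cldn5* class, at 385 (334 to 442) and 422 (369 to 479) CPM, and was found in 61.8% and 58.9% of these cells, at median depths of 3407 and 2576 UMIs. In the deeper *Mog* cells the share was 0.461% and 1.56%, and after thinning, which kept 108 and 117 *Cldn5* cells and 216 and 750 *Mog* cells, it was 44.4% and 52.1% against 0.463% and 0.133%. The *Kcnj8* class had 256 (146 to 416) and 83.5 (17.2 to 244) CPM, from 16 and 3 UMIs. The ratio of *Cldn5* over *Kcnj8* was 1.51 (0.905 to 2.68) and 5.05 (1.71 to 24.7), with the first interval spanning 1. With the wider gate the untreated ratio was 1.70 (1.09 to 2.81). Fibroblast genes (*Dcn*, *Lum*, *Col1a1* and *Col1a2*) summed to 384 and 167 CPM in *Kcnj8* cells, in 11 of 25 and 5 of 20 cells. Their part in the *Vim* values was not tested. *Aqp4* cells had 45.7 and 44.1 CPM. *Mog* cells had 0.529 and 2.50 CPM, from 1 and 12 UMIs. Among *Slc32a1* cells none of 24 and none of 129 had a UMI, where 3 UMIs would give 15.2 and 5.42 CPM.

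Part of the *Vim* signal outside vessels lay in few cells. In the wider gate, *C1qa* cells with *Mrc1*, a gene of border-associated macrophages (26 and 27 cells), had 187 and 89.4 *Vim* CPM against 11.3 and 11.4 in the other *C1qa* cells, a ratio of 16.5 (8.45 to 32.6) and 7.84 (2.53 to 20.8). In the *Pdgfra* class *Vim* stood at 36.1 CPM (untreated) and 2.67 CPM (4OH-tamoxifen). In that class 9 of 17 untreated *Vim* UMIs lay in the 6 cells with *Dcn*, a gene of fibroblasts, which also carry *Pdgfra*. The summed level of the fibroblast genes *Dcn*, *Lum*, *Col1a1* and *Col1a2* in this class was 795 and 175 CPM, and 6 and 3 cells had 3 or more of their UMIs. Their part in the *Vim* difference was not tested.

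*Nes* followed the vessels as well. It stood at 269 (226 to 317) and 326 (281 to 377) CPM in the *Cldn5* class, 128 and 139 CPM in the *Kcnj8* class, 17 and 17.4 CPM in the *Pdgfra* class and 17.9 and 15.7 CPM in the *C1qa* class. Its ratio of *Cldn5* over *Kcnj8* was 2.10 (1.04 to 4.96) and 2.35 (0.987 to 7.31), with the second interval spanning 1. With the wider gate the 4OH-tamoxifen ratio was 2.67 (1.14 to 8.26). *Aqp4* cells held 5 and 9 *Nes* UMIs in all, at 3.0 and 3.18 CPM. The ratio of *Cldn5* over *Pdgfra* was 15.8 (7.81 to 37.3) and 18.8 (10.7 to 36.0), and the second became 119 when 3 UMIs of the own marker were asked for. *Nes* had no UMI in the *Chat* class, where 3 UMIs would give 71.6 and 35.2 CPM, nor in the *Slc17a6* class, where they would give 31.2 and 12.4 CPM. *Vim* and *Nes* were found together in 50 of 123 (40.7%) and 58 of 163 (35.6%) *Cldn5* cells. Precursors with *Top2a*, a gene of dividing cells (43 and 98 cells in the wider gate), had *Nes* ratios of 2.01 (0.417 to 8.47) and 1.23 (0.334 to 3.83) over the other *Pdgfra* cells, which span 1.

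Within neuron classes, *Nefh* varied with second genes. *Slc32a1* cells of the wider gate with *Pvalb*, which encodes parvalbumin, had 569 and 821 *Nefh* CPM in 5 and 33 cells, and the other cells had 81.4 and 235 CPM. The ratio was 7.0 (4.17 to 11.5) and 3.49 (2.84 to 4.28). With the strict gate it was 5.84 (3.82 to 8.78) in 8 4OH-tamoxifen cells, and 0.671 (0.0161 to 4.25) in the untreated library, which rests on 1 cell with *Pvalb* and 1 *Nefh* UMI. Cells with *Slc6a5*, the glycine transporter of glycinergic neurons, had a *Nefh* ratio of 2.58 (1.38 to 5.24) and 1.62 (1.29 to 2.05), and in the strict gate 1.89 (0.601 to 7.81) and 2.49 (1.51 to 4.31). Cells with *Cck* had a *Nefl* ratio of 0.365 (0.209 to 0.598) and 0.567 (0.453 to 0.701).

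Glutamatergic cells with *Nmb*, the peptide gene of retrotrapezoid neurons, had lower CPM of the 3 neurofilament genes in the wider gate. The *Nefl* ratio of *Slc17a6* cells with over without *Nmb* was 0.313 (0.224 to 0.431) in the untreated library, with 25 cells carrying it, and 0.382 (0.326 to 0.447) with 4OH-tamoxifen, with 64. It was 0.354 (0.210 to 0.576) and 0.366 (0.289 to 0.459) for *Nefm* and 0.242 (0.114 to 0.467) and 0.453 (0.353 to 0.576) for *Nefh*. A few cells can weigh on these ratios. In this gate the richest *Slc17a6* cell held 88 of 542 and 383 of 2212 UMIs of the 5 neuronal filament genes. The medians were 5 and 6 UMIs, and 3 of 46 and 9 of 139 cells held 50 or more. The counting intervals leave out this spread between cells. With the strict gate the *Nefl* ratio was 0.389 (0.194 to 0.727) in 7 untreated cells but 1.01 (0.758 to 1.33) in 21 4OH-tamoxifen cells, where *Nefm* (0.730) and *Nefh* (0.732) also had intervals that span 1, so the gate decides the value there.

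**Figure D4:**
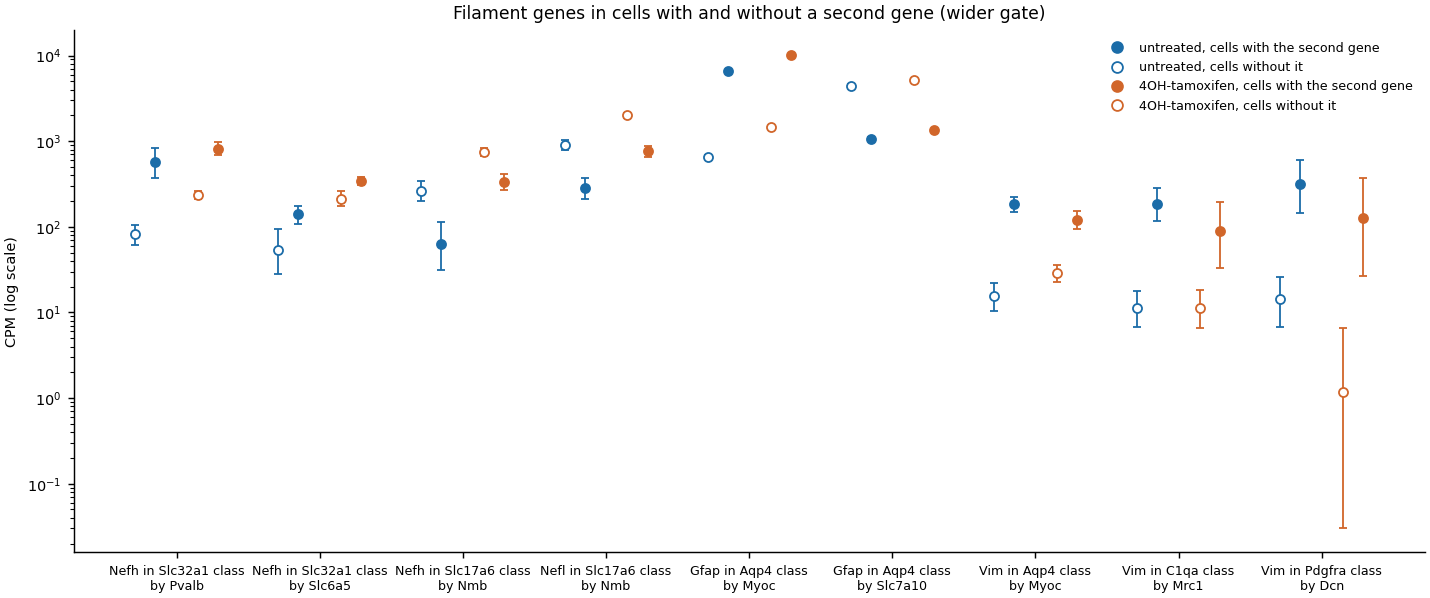
CPM (log axis) of a filament gene in cells with (filled) and without (open) a UMI of a second gene, in classes of the wider gate, untreated (blue) and 4OH-tamoxifen (orange), with exact Poisson 95% intervals. *Nefh* is higher in *Slc32a1* cells with *Pvalb* (569 and 821 CPM), *Nefl* lower in *Slc17a6* cells with *Nmb*, *Gfap* higher in *Aqp4* cells with *Myoc* and lower in those with *Slc7a10*, and *Vim* higher in *C1qa* cells with *Mrc1*.

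Outside neurons, most neuronal filament genes had higher CPM in the 4OH-tamoxifen library. In the *Aqp4* class *Nefl* stood at 296 CPM (untreated) and 622 CPM (4OH-tamoxifen), a ratio of 2.10 (1.90 to 2.33). *Nefm* stood at 114 and 291 CPM and *Nefh* at 69.7 and 171 CPM. *Gfap* had a ratio of 1.54 (1.47 to 1.60) and *Vim* of 0.967 (0.721 to 1.30) there. Of the 7 members with at least 20 CPM on average and 20 UMIs in sum, 4 were past a ratio of 2 in this class, where 1.16% of 6395 genes were. These members were chosen with this comparison known, so the count adds nothing beyond the values.

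In the other classes with at least 50 cells per library, the count past 2 was 4 of 6 members in *Pdgfra* cells (2.49% of all genes counted there), 1 of 6 in *Mog* cells (0.2%), 5 of 7 in *C1qa* cells (3.67%) and 1 of 7 in *Cldn5* cells (3.07%). All members past 2 in these 5 classes were neuronal filament genes. These counts are of CPM ratios. Among the same members and classes, only *Prph* in *Pdgfra* cells (2.17) and *Nefh* in *Cldn5* cells (3.35) passed 2 in UMIs per cell. The others stood at 1.34 to 1.88 per cell. The median ratio of the members counted was 2.01, 2.75, 1.37, 2.30 and 1.44 in the *Aqp4*, *Pdgfra*, *Mog*, *C1qa* and *Cldn5* classes, and over all genes counted 1.01, 0.943, 0.969, 0.987 and 0.994. The largest single ratio of a member counted was that of *Nefh* in *Cldn5* cells, 4.18 (2.48 to 7.41), at 34.3 and 144 CPM. *Vim* in *C1qa* cells was lower with 4OH-tamoxifen, at 33.4 and 12.1 CPM, a ratio of 0.361 (0.157 to 0.766), and 21 of its 28 untreated UMIs lay in 17 cells with *Mrc1*.

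The ratios were lower per cell than in CPM, and some turned. In *C1qa* cells the *Nefl* ratio was 2.30 (1.93 to 2.75) in CPM and 1.34 (1.13 to 1.61) in UMIs per cell, and in *Aqp4* cells the per-cell ratio was 1.55 (1.40 to 1.72). Per cell the 4OH-tamoxifen value was the lower one for *Ina* in *Pdgfra* cells, at 0.679 (0.473 to 0.983) against a CPM ratio of 1.13 (0.787 to 1.64), and for *Prph* in *Mog* cells, at 0.694 (0.508 to 0.959) against 0.971 (0.711 to 1.34). The per-cell ratio was 0.930 (0.740 to 1.18) for *Nefh* in *Mog* cells and 0.966 (0.765 to 1.23) for *Prph* in *Aqp4* cells. For *Gfap* it was 0.688 (0.550 to 0.860) in *C1qa* cells and 0.912 (0.760 to 1.10) in *Mog* cells, against CPM ratios of 1.18 and 1.28. For *Vim* in *Aqp4* cells it was 0.714 (0.532 to 0.962), against 0.967 in CPM. The depth of the cells differed between the libraries as well. The median *C1qa* cell held 4057 UMIs in the untreated and 2257 in the second library. The 6 pan-neuronal genes summed to CPM ratios of 1.22 (1.12 to 1.34) in *Aqp4*, 1.60 (1.35 to 1.89) in *Pdgfra*, 1.10 (0.999 to 1.21) in *Mog*, 2.03 (1.73 to 2.39) in *C1qa* and 1.14 (0.928 to 1.41) in *Cldn5* cells. In UMIs per cell their sum was higher with 4OH-tamoxifen only in *C1qa* cells (1.14 and 1.35). It was lower in *Aqp4* (1.32 and 1.20), *Pdgfra* (1.42 and 1.36), *Mog* (2.77 and 2.18) and *Cldn5* cells (1.35 and 1.24). Neurons had ratios on both sides of 1. In the *Chat* class the CPM ratio was 0.927 (0.813 to 1.06) for *Nefl*, 0.801 (0.664 to 0.967) for *Nefm*, 0.935 (0.734 to 1.20) for *Nefh*, 0.839 (0.641 to 1.10) for *Prph* and 1.38 (0.677 to 3.05) for *Ina*. Per cell *Nefl* was at 0.687 (0.602 to 0.784) there, from 4 and 11 cells. In *Slc32a1* cells the CPM ratios were 1.64 (1.26 to 2.15) for *Nefl*, 2.28 (1.52 to 3.56) for *Nefm* and 2.14 (1.31 to 3.68) for *Nefh*, with per-cell ratios of 0.855 to 1.19 whose intervals span 1. In *Slc17a6* cells they were 1.45 (1.09 to 1.95), 1.52 (1.0 to 2.3) and 3.42 (2.17 to 5.66), and per cell *Nefl* was at 0.713 (0.537 to 0.958) and *Nefh* at 1.68 (1.07 to 2.78). The CPM ratio of *Prph* was 0.544 (0.234 to 1.31) in *Slc17a6* cells and 3.74 (0.914 to 32.9) in *Slc32a1* cells. Per cell these ratios were 0.267 (0.115 to 0.644) and 1.95 (0.478 to 17.2). What set the neurofilament UMIs of the 4OH-tamoxifen library higher was not tested.

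**Figure D5:**
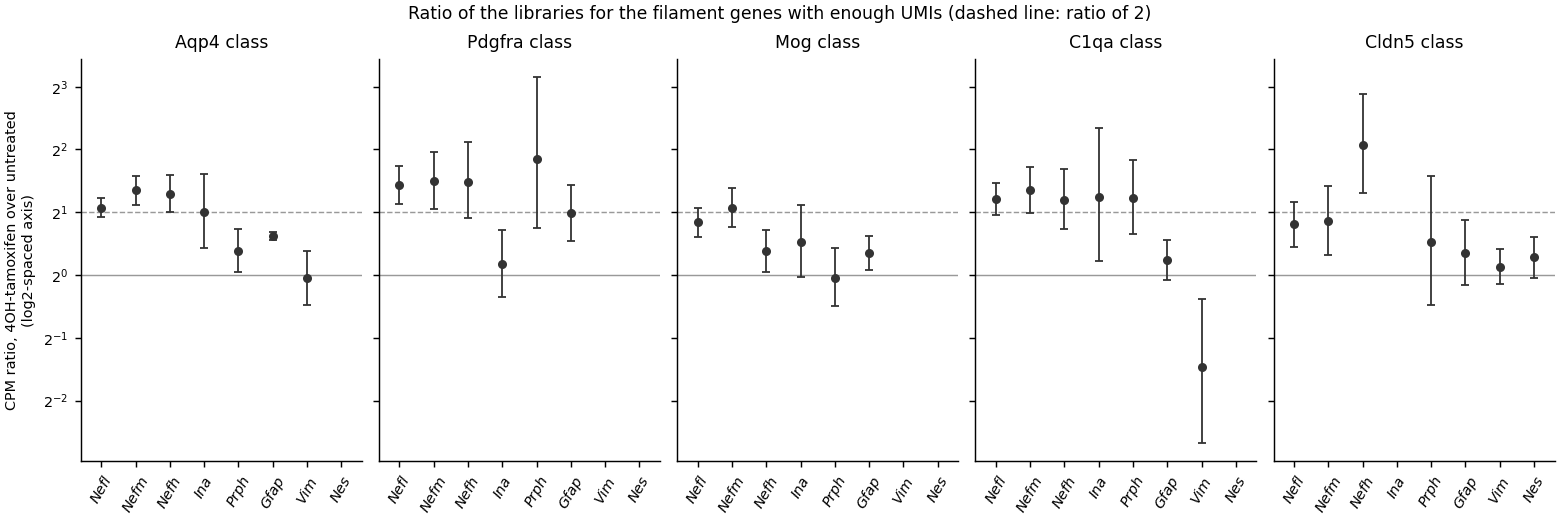
Ratio of CPM, 4OH-tamoxifen over untreated (log2-spaced axis), for the members with at least 20 CPM on average and 20 UMIs in sum, in 5 classes outside neurons, with exact conditional 95% intervals. The dashed line marks a ratio of 2 and the solid line 1. *Nefl*, *Nefm* and *Nefh* lie above 1 in all 5 classes (*Nefl* at 2.10 in *Aqp4* cells), although *Nefh* in *Mog* cells (1.30) falls to 0.586 after thinning and 0.665 as a mean of each cell's CPM, while *Vim* is near 1 in *Aqp4* and *Cldn5* cells and 0.361 in *C1qa* cells.

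Of 10 other intermediate filament genes, 1 to 3 reached a mean of 20 CPM over the libraries in each class, and *Krt8* and *Krt18*, keratins of simple epithelia, had 0 UMIs in all 9. *Synm*, whose product synemin joins vimentin and desmin filaments, stood at 124 and 165 CPM in *Cldn5* cells. *Bfsp2*, a beaded filament gene of the eye lens, stood at 198 and 169 CPM in *Mog* cells. The lamin gene *Lmnb1* had 123 and 88.2 CPM in *Pdgfra* cells, and *Lmna* 208 and 139 CPM in *Kcnj8* cells, from 13 and 5 UMIs. Of the linkers that tie filaments to other structures, *Dst* was at 525 and 609 CPM in *Chat* cells and at 257 and 294 CPM in *Mog* cells, and *Macf1* at 326 and 244 CPM in *Aqp4* cells and at 299 and 355 CPM in *Cldn5* cells.

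Among 8708 genes, those whose levels were most like each member's over the 9 classes of both libraries were named by Pearson's r of log2(CPM + 10) over 18 values. These points share libraries and depth, and r is a description. *Nefl* was closest to *Nefm* (0.978), *Nefh* (0.961) and the vesicular acetylcholine transporter gene *Slc18a3* (0.944). *Nefm* and *Nefh* (0.973 with each other) were next closest to *Ncaph2* (0.956 and 0.944). *Prph* was closest to *Slc18a3* (0.963), *Susd2* (0.925) and *Nefl* (0.924).

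The remaining members had other neighbours. *Ina* was closest to *Jph3* (0.983), *Podxl2* (0.974) and *Eef1a2* (0.966), the last an elongation factor gene of neurons and muscle. *Gfap* was closest to the GABA transporter gene *Slc6a11* (0.972), *Slc39a12* (0.959) and *Slc7a11* (0.954). *Nes* was closest to the endothelial genes *Eng* (0.989) and *Ets1* (0.983) and to *Ahnak* (0.973), which also led for *Vim* (0.953), followed by *Pltp* (0.944) and *Ppic* (0.943).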

How the data were processed

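Single-cell RNA-seq of the ventral parafacial region was analysed from 2 libraries, untreated and 4OH-tamoxifen, of 8 pooled mice each. According to the submitters' processing notes and the study's methods, the authors used bcl2fastq 2.18.0.12 and Cell Ranger 2.2.0 with the 10X Genomics mm10 (GRCm38) reference. The deposited values are raw UMI counts per gene and barcode, so doublets and poor cells were still present, and free RNA had not been removed. Barcodes with fewer than 800 genes, over 50 hemoglobin UMIs or over 20% mitochondrial UMIs were removed, as were doublets called by Scrublet in scanpy 1.11.5 at its automatic threshold (6 and 544 barcodes). The libraries hold 18496942 and 34704167 UMIs in 3767 and 10241 barcodes. No column of another sample was in the files (0 columns).

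UMIs of each gene were summed over the cells of a class and divided by their total (CPM), with 95% intervals from the exact Poisson distribution. The share of cells holding a UMI was also computed after thinning cells to 2000 UMIs, with shallower cells left out. Ratios have exact conditional intervals. All intervals cover counting error only. No test between classes or libraries was made, since cells are not replicates. Where a class had 0 UMIs the limit is that of 3 UMIs. Ratios between libraries were counted over genes with at least 20 CPM on average and 20 UMIs in sum. The intervals and ratios were tested on simulated data. Thinning was checked in the untreated library to leave 2000 UMIs in each cell kept.

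The wider gate took neurons with at least 1 UMI of the own marker, 0 of the other neuronal markers, at least 10 UMIs of the 6 pan-neuronal genes and at most 2 UMIs of each other marker, and other cells with at least 2 UMIs of the own marker and at least 80% of all marker UMIs. The members and gene lists were chosen with earlier results of these data known. The genes named are the members, the markers, the listed genes and, for each member, the 3 genes with the highest Pearson's r among genes with at least 50 CPM in a class. The markers that define the classes were left out there, and further markers such as *Slc18a3* were kept. The likeness used log2 of CPM plus 10. Gene positions are of GENCODE M21 and upstream sequences of RefSeq, both on GRCm38. Python 3.11.15, numpy 2.4.6, scipy 1.17.1 and pandas 2.3.3 were used. The alternatives covered gate stringency, a second marker, doublets, gene and mitochondrial limits, shared barcodes, fibroblast genes, thinning and the mean of each cell's CPM.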

Additional observations from a re-analysis of the deposited data

How the results depend on the processing

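No paired analysis was possible because each condition has 1 library, and the shared replicate number pairs nothing. The 16 planned and 2 added alternatives kept 155 of 181 recomputed main values within their counting interval or count limit, and no main ratio crossed 1. The exceptions follow, as untreated and 4OH-tamoxifen values where both moved.

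The ratio of the neuronal filament sum, *Chat* over *Slc32a1* (21.3 and 10.5), became 17.9 and 8.56 with at most 1 UMI of each other marker and 16.6 and 8.44 with the wider gate. In the untreated library it became 14.1 without cells with *Dcn*, *Lum* or *Col1a1*. In the 4OH-tamoxifen library it became 9.18 with 1 UMI of the own marker, 11.6 at 10% mitochondrial UMIs, 8.67 after thinning and 9.24 as a mean of each cell's CPM. With 3 UMIs of the own marker fewer than 3 *Chat* cells remained, so that ratio had no value and 4 of 8 members (*Nefl*, *Nefm*, *Nefh* and *Prph*) lost their leading class in both libraries.

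The *Gfap* ratio, *Aqp4* over *C1qa* (9.52 and 12.4), became 8.02 and 9.78 with 1 UMI of the own marker and 12.2 and 24.4 with 1200 genes. It became 7.86 as a mean of each cell's CPM in the untreated library, and 18.7 at 10% mitochondrial UMIs and 16.9 after thinning with 4OH-tamoxifen. The *Ina* ratio, *Pdgfra* over *Aqp4* (5.25 and 2.95), became 2.68 at 10% mitochondrial UMIs in the untreated library, which left 120 *Aqp4* cells, and 2.08 with 1 UMI of the own marker with 4OH-tamoxifen. The *Nes* ratio of *Cldn5* over *Pdgfra* with 4OH-tamoxifen became 119 with 3 UMIs of the own marker.

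The highest over lowest filament UMIs per cell outside neurons became 1.31 with 1 UMI of the own marker, 1.34 with at most 1 UMI of each other marker and 1.53 with 1200 genes in the 4OH-tamoxifen library (1.11), and 1.28 without cells of 10 or more such UMIs in the untreated library (1.56). The count of member and class pairs past a library CPM ratio of 2 (15) became 9 at 100 CPM. Among single genes, 3 library ratios crossed 1: *Prph* in *Aqp4* cells (0.662 at 10% mitochondrial UMIs) and *Nefh* in *Mog* cells (0.586 after thinning and 0.665 as a mean of each cell's CPM). The causes were not tested. The few *Chat* and *Kcnj8* cells, 4 to 25, limit what those classes can show.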

Other observations

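Cells that the strict gate put in no class were 2028 untreated and 5394 4OH-tamoxifen cells. *Nefl* stood at 301 and 1033 CPM in them, *Prph* at 79.3 and 190 CPM, *Gfap* at 274 and 301 CPM, *Vim* at 64.4 and 32.5 CPM and *Nes* at 51.4 and 31.2 CPM. Their richest cells held 91 and 291 *Nefl* UMIs, and 46 untreated (2.27%) and 188 4OH-tamoxifen (3.49%) cells had 10 or more. These cells entered no comparison of the strict gate. The wider gate left 1032 and 3573 cells in no class, so part of them entered its comparisons.

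The *Nefm* model of GENCODE M21, on the minus strand, spans the *Nefl* gene on the plus strand, whereas the RefSeq *Nefm* model, at chr14:68119545-68125004, does not. Whether UMIs of one were counted for the other was not tested.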
